A study of Mus musculus with 2 samples.

Results

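The TRIM (tripartite motif) family was followed in ischemic mouse muscle with and without *Mapk10*, the gene of the neural stress kinase JNK3. Members were all genes whose symbol is Trim followed by digits and at most 1 letter, without *Trim63*, each read by its brightest probe among those assigned to 1 gene symbol. A probe here is 1 identifier of the deposited values, of which there were 41345, and it may summarise many oligonucleotides. The rule gave 62 members among 22180 genes measured. They were divided into 3 muscle members (*Trim54*, *Trim55* and *Trim72*), 4 interferon-linked members (*Trim21*, *Trim25*, *Trim30a* and *Trim34a*) and 55 other members. RefSeq lists 67 genes of this name pattern without *Trim63*, and the remaining 5 (*Trim5*, *Trim34b*, *Trim60*, *Trim61* and *Trim65*) were read here only by probes shared with another gene.

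TRIM proteins carry a RING finger, B-box zinc fingers and a coiled coil, and most act as ubiquitin ligases that mark other proteins for breakdown or for signalling. What follows the coiled coil sets the target, and the family is known both for innate defence against viruses and for work specific to striated muscle. In muscle fibres the MuRF proteins (*Trim54*, *Trim55* and *Trim63*) sit on sarcomeres and microtubules, and the protein of *Trim72*, also called MG53, seals tears in the cell membrane. Many other members are induced by interferon.

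RNA came from the gastrocnemius muscle of male C57Bl6/J mice aged 8 to 12 weeks, taken on day 3 after ligation of the femoral artery of the right leg. WT mice and homozygous Mapk10-/- mice, which lack the gene in the whole body, were bred from heterozygous parents. Extracts of 3 mice were combined per genotype and read on 1 MoGene 2.0 ST array (Affymetrix), so both arrays come from ischemic muscle and no uninjured muscle was part of the comparison. The sample labels also name the thigh adductor beside the gastrocnemius.

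The signals, processed by the authors, are on a linear scale, with a median over all probes of 43.2 for WT and 41.2 for Mapk10-/- muscle. With 1 array per genotype no test could be made, and how far single mice differ is unknown. Differences are log2 of the Mapk10-/- signal minus log2 of the WT signal, and a fixed size of 1.5-fold (0.58 on the log2 scale) stands in for a threshold. The one error at hand is the technical SD, taken from how far 2 probes of the same gene differed from each other over 968 genes, which was 0.29 in log2 difference. Signals of different probes are not compared with each other. In a whole tissue, fewer cells of a type and less RNA per cell cannot be told apart. *Mapk10* itself was dim on both arrays, at 25.2 in WT and 17.7 in Mapk10-/- muscle, so it checks the labels only weakly. *Xist*, transcribed from the inactive X chromosome of females, stood at 554.0 for WT against 23.0 for Mapk10-/- muscle, although the mice are described as male. Genes of the Y chromosome were higher in the Mapk10-/- pool, *Uty* by 1.31, *Eif2s3y* by 1.11 and *Kdm5d* by 0.80 in log2 difference. A difference in the sex of the pooled mice and the genotype cannot be told apart in any value below.

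On their brightest probes the 3 muscle members were the highest of the family in Mapk10-/- muscle, and no other member was higher by 1.5-fold. Another 3, all outside the muscle and interferon-linked groups, were lower by that much. Thus 3 of 62 members (4.84%) were at least 1.5-fold higher, beside 4.1% of all genes, and 3 (4.84%) were at least 1.5-fold lower, beside 3.69% of all genes. In either direction these are 6 members (9.68%), beside 7.8% of all genes. These shares were near those of all genes, so the family as a whole did not stand apart. Above 0 lay 37 members (59.7%) and 47.8% of all genes. That share covers genes of any signal, and brighter genes leaned upward. The 25th to 75th percentile ran from -0.30 to 0.12 among dim genes (median signal 13.9). Among brighter genes (median signal 194.2) it ran from -0.08 to 0.26. The median log2 difference of the family was 0.10, with 0 over all genes, and 41 members (66.1%) lay within the technical SD of 0, as did 67% of all genes. The medians of the groups were 0.91 for muscle members, -0.0065 for interferon-linked members and 0.09 for the others. The lowest muscle value of 0.86 lay above the highest of the other 59 members, which was 0.58. The SD over these 59 was 0.32, a spread over unlike genes that measures neither error nor mice. Among genes of like signal, *Trim72* lay under the 95th percentile (0.89). *Trim55* and the brighter probe of *Trim54* lay above theirs (0.64 and 0.72). *Trim54* counts here by its brighter probe (0.91), while its second probe was at -0.46 and the mean of both at 0.23.

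**Figure D1:**
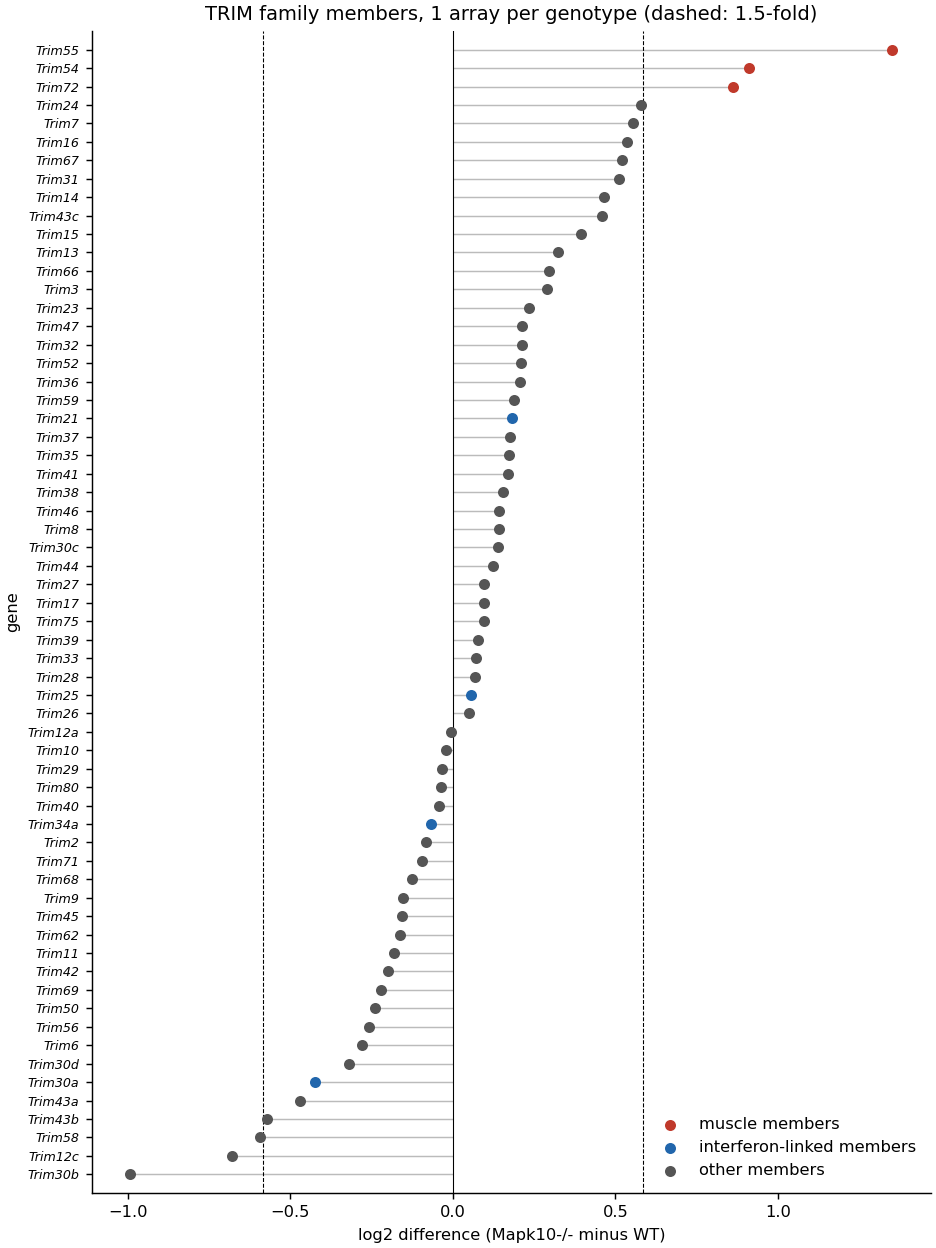
Log2 difference (Mapk10-/- minus WT) of each of the 62 members, 1 point per gene, with muscle members in red, interferon-linked members in blue and others in grey; dashed lines mark 1.5-fold. The red points at 0.86, 0.91 and 1.35 stand to the right of all others, and the lowest point is *Trim30b* at -0.99.

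*Trim55* encodes MuRF2, a ligase that associates with titin and microtubules while sarcomeres are assembled. It read 74.9 for WT and 191.3 for Mapk10-/- muscle, 2.55-fold higher (log2 difference 1.35). It was the one member past 2-fold in either direction. It was read by 1 probe identifier in the third of 4 classes of mean signal, in which 4.4% of genes were at least 1.5-fold higher.

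*Trim72* encodes MG53, the muscle protein that carries vesicles to membrane tears. It was read at 383.6 in WT muscle against 696.9 in Mapk10-/- muscle, a 1.82-fold difference (0.86), from 1 probe in the brightest class of signal. In that class 7.9% of genes were past the line upward and 2.72% downward.

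*Trim54* encodes MuRF3, which steadies microtubules in developing muscle. On its brighter probe it read 238.9 for WT and 449.6 for Mapk10-/- muscle, 1.88-fold higher (0.91). Its second, dimmer probe went the other way, with 51.3 in WT and 37.3 in Mapk10-/- muscle (-0.46). The gap of 1.37 between both probes was matched or exceeded by 0.413% of the 968 genes with 2 probes, whose median gap was 0.25. As the mean of its probes *Trim54* was at 0.23, under the 1.5-fold line and within the technical SD. Which exons each probe reads was not analysed here. The muscle group therefore rests on *Trim55* and *Trim72* without this disagreement, and on *Trim54* only by its brighter probe.

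*Trim63*, the third MuRF gene and a ligase of muscle wasting, is outside the set by the rule. It read 329.5 for WT and 540.3 for Mapk10-/- muscle, 1.64-fold higher (0.71). It thus lay on the same side as *Trim55* and the brighter probe of *Trim54*.

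**Figure D2:**
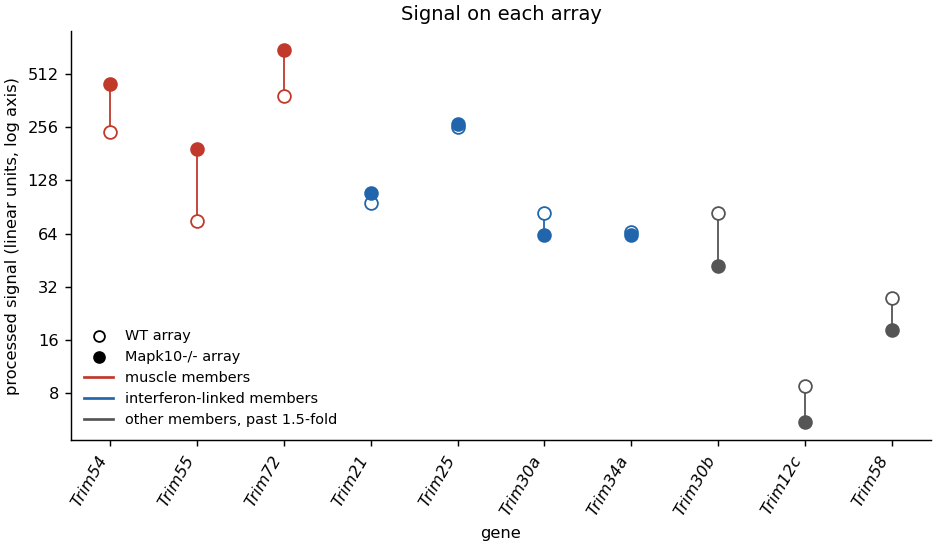
Processed signal (log axis) of the 7 contrasted members and the 3 members at least 1.5-fold lower, with open points for WT and filled points for Mapk10-/- muscle. The filled points of *Trim54*, *Trim55* and *Trim72* lie above the open ones, those of *Trim21*, *Trim25* and *Trim34a* overlap them, and those of *Trim30b*, *Trim12c* and *Trim58* lie below.

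The bases just before the start sites of *Trim54* and *Trim72* are shown, from RefSeq on GRCm38.p6, whose promoter table held 48 of the 62 members. Not in it were *Trim55*, *Trim3*, *Trim8*, *Trim11*, *Trim14*, *Trim16*, *Trim17*, *Trim29*, *Trim33*, *Trim35*, *Trim36*, *Trim43b*, *Trim43c* and *Trim50*. Capitals mark the letters CANNTG (the E-box, read by MyoD family factors) and CATTCC (the MCAT element, read by TEAD factors), searched on both strands in the 250 bases before the start site. GGAATG is CATTCC on the other strand.
Trim54, chr5:31116362-31116611, plus strand: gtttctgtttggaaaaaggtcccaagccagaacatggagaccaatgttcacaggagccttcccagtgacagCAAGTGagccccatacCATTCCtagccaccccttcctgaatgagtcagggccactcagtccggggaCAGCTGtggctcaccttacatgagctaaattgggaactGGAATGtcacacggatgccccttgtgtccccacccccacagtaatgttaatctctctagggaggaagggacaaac
Trim72, chr7:128004128-128004377, plus strand: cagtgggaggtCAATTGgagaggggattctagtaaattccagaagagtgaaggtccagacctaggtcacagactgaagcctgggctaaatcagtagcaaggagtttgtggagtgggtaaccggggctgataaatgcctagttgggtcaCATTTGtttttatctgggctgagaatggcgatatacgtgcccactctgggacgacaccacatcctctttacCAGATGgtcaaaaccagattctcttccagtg
*Trim54* held 2 matches to CANNTG and 2 to CATTCC, and *Trim72* held 3 to CANNTG and 0 to CATTCC. Such short letters are common: CANNTG occurred in 66.2% and CATTCC in 12.6% of the 32851 promoters of the same length, and in 43 and 10 of the 62 promoters that the table holds for the 48 members. The matches are descriptions of these windows and not evidence of a bound factor.

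Genes that work beside the muscle members were read from a companion list of titin and membrane repair partners. Of 16 such genes, 3 were at least 1.5-fold higher and none lower (4.1% and 3.69% of all genes), with a median of 0.25. All but *Cav3* were in the brightest class of signal, where 7.9% of genes were higher and 2.72% lower by that much. The highest was *Cav3*, the muscle caveolin that MG53 binds during repair, at 60.7 in WT and 125.0 in Mapk10-/- muscle (1.04). Next came *Irs1*, the insulin receptor substrate that MG53 marks for breakdown, at 0.76, and *Sqstm1*, the autophagy adaptor p62 that joins MuRF2 at titin, at 0.67. The second, dimmer probes of *Irs1* and *Dysf* were near level, at 0.04 and -0.06. *Dysf*, the repair protein dysferlin, was at 0.57 and titin (*Ttn*) at 0.44, both under the line. The annexins of membrane patches lay on both sides of 0, *Anxa2* at -0.30, *Anxa1* at -0.24, *Anxa5* at -0.22 and *Anxa6* at 0.25.

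Most markers of muscle fibres were higher on the Mapk10-/- array, as the muscle members were. Of 10 fast fibre genes 6 were at least 1.5-fold higher and none lower (4.1% and 3.69% of all genes, and 7.9% and 2.72% in the brightest class), with a median of 0.70, and their signals summed to 29635 in WT and 41814 in Mapk10-/- muscle. Of 7 slow fibre genes 6 were past the line upward and none downward (median 1.14), with sums of 1583 and 3072. Of 5 genes of regenerating fibres 4 were past it upward and none downward (median 0.84), with sums of 664.0 and 1359, and *Myh8* was at -0.28. None of these markers was at 0 on either array. The values of *Trim72* and of the brighter probe of *Trim54* lay between the fast and the slow fibre medians, and that of *Trim55* lay above both. Whether the amount or type of muscle fibre in the pools had a part in the *Trim54*, *Trim55* and *Trim72* values was not tested.

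**Figure D3:**
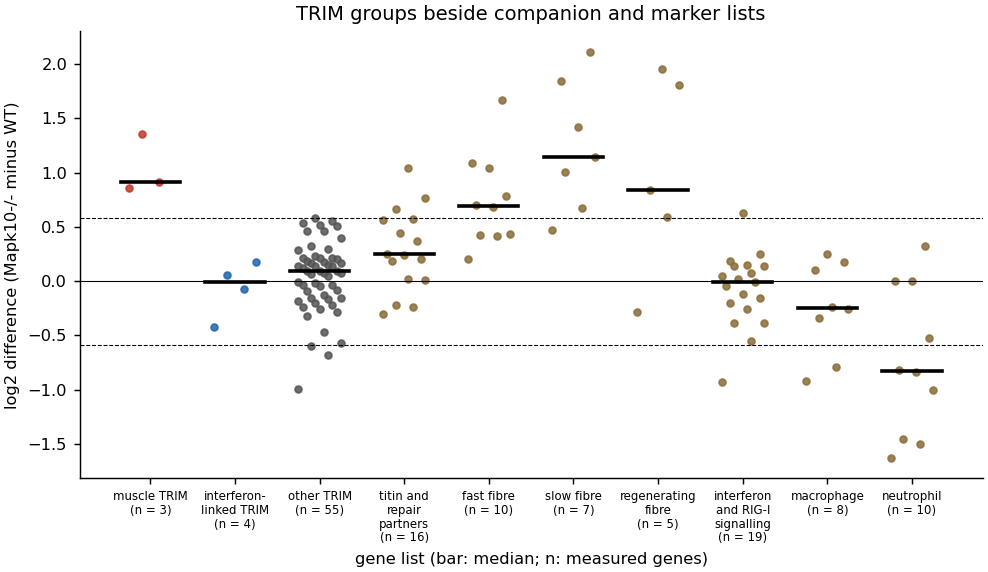
Log2 difference (Mapk10-/- minus WT) of every measured gene of the 3 TRIM groups and of 7 companion and marker lists, 1 point per gene, with a bar at the median and dashed lines at 1.5-fold. The muscle TRIM median (0.91) lies between those of fast fibre (0.70) and slow fibre (1.14) genes, and the interferon-linked TRIM median (-0.0065) is near that of interferon and RIG-I signalling genes (-0.0043).

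None of the 4 interferon-linked members reached 1.5-fold in either direction, and 3 of them lay within the technical SD of 0. *Trim25*, which attaches ubiquitin to the RNA sensor RIG-I, read 256.7 for WT and 266.8 for Mapk10-/- muscle (0.06). *Trim21*, the cytosolic receptor for antibodies, read 95.7 and 108.5 in the same order (0.18). *Trim34a*, an interferon-induced gene, had 65.7 and 62.6 (-0.07). These 3 were thus nearly level on both arrays.

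*Trim30a*, which restrains NF-κB signalling in mouse macrophages, was the member of this group with the largest difference, at 83.7 for WT and 62.4 for Mapk10-/- muscle, 1.34-fold lower (-0.42). It lay outside the technical SD and under the 1.5-fold line. *Trim34a* had a second, very dim probe (6.37 and 5.86) at -0.12. A probe that *Trim34a* shares with *Trim34b* was at 66.1 in WT and 86.0 in Mapk10-/- muscle (0.38), so the direction of *Trim34a* depended on the probe.

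The start sites of these genes were searched for the interferon-stimulated response element, taken as GAAA, any 2 bases and GAAA again, on both strands from 250 bases before to 50 after the start site. The stretches around the matches are shown for the interferon-linked members and their neighbours, with the matching letters in capitals. TTTC in place of GAAA means a match on the other strand.
Trim21, chr7:102565447-102565476, minus strand: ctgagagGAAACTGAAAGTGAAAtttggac
Trim34a, chr7:104244457-104244486, plus strand: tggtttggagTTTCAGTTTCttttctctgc
Trim12a, chr7:104315466-104315495, minus strand: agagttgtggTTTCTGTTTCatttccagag
Trim12c, chr7:104353359-104353388, minus strand: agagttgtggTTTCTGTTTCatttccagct
Trim30a, chr7:104465210-104465239, minus strand: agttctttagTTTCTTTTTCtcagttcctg
Trim30d, chr7:104507871-104507900, minus strand: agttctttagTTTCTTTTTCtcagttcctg
*Trim21* held 2 overlapping matches, and the other stretches held 1 each. *Trim30a* has a further start site in the table, with a match of its own in chr7:104446104-104446133 on the minus strand.
Trim30a, further start site: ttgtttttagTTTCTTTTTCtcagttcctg
The element lay from 14 to 29 bases after the start site in *Trim21* and from 36 to 27 before the first start site of *Trim30a* shown. At the further start site of *Trim30a* it lay from 3 to 12 bases after. The first *Trim30a* stretch and that of *Trim30d* shared all 30 bases, and *Trim12a* and *Trim12c* shared 28 of 30. In all, 9 of the 62 promoters of members in the table held the letters, beside 3.44% of the 32851 promoters. They belong to 8 of the 48 members, the 6 shown with *Trim2* and *Trim26*. *Trim25* and *Trim30b* had no match in this window, which says nothing of other positions. Members with the letters had values from -0.68 (*Trim12c*) to 0.18 (*Trim21*), so they lay on both sides of 0.

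In a companion list of interferon and RIG-I signalling genes, 1 of 19 measured was past 1.5-fold upward and 1 downward (4.1% and 3.69% of all genes), with a median of -0.0043. The higher one was *Stat2*, a transcription factor of the type I interferon response, at 155.1 in WT and 239.3 in Mapk10-/- muscle (0.63). The lower one was *Ikbke*, a kinase that activates interferon regulatory factors, at 165.0 and 86.5 (-0.93). *Ifnar1*, a type I interferon receptor chain, was at 564.9 and 384.9 (-0.55), just under the line. *Ddx58*, the gene of RIG-I and target of *Trim25*, was at 0.19, and *Isg15*, which encodes an interferon-induced ubiquitin-like protein, at 0.14.

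The relatives of *Trim30a* and *Trim34a* held the lowest values of the family. *Trim30b*, a paralog of *Trim30a*, was the lowest of all 62 members, at 83.8 for WT and 42.1 for Mapk10-/- muscle, 1.99-fold lower (-0.99). In its class of signal, 2.11% of genes were at least 1.5-fold lower. *Trim12c*, a mouse relative of primate *TRIM5*, was next at 8.86 and 5.54 (-0.68). Both signals of *Trim12c* were far under the median of its arrays, and 6.46% of genes in the dimmest class were at least 1.5-fold lower. Of 2 probes that *Trim12c* shares with *Trim5*, the brighter was at 0.48 (29.8 in WT, 41.7 in Mapk10-/- muscle) and the dimmer at -0.84 (16.1 and 8.98). No single direction can therefore be given for *Trim12c*.

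On chromosome 7, 10 Trim genes lie next to each other from *Trim6* to *Trim30d*, with 1 other protein-coding gene (*Gm38525*) between them. Lower in Mapk10-/- muscle were 11001 of all 22180 genes and 25 of all 62 members. Of the 8 members in this run, 7 were lower and 1 higher. Of these 7 lower values 3 have no settled direction, *Trim12c* and *Trim34a* because shared probes read higher, and *Trim12a* because it was level on both arrays. Their median was -0.30, and 4 of the 8 lay within the technical SD of 0. *Trim30d* was at 71.0 in WT and 56.9 in Mapk10-/- muscle (-0.32), *Trim6* at 28.4 and 23.4 (-0.28), and *Trim12a* at 126.2 and 125.6 (-0.01). *Trim30c* was the exception, at 43.9 and 48.4 (0.14). The 4 *Trim30* genes alone spanned -0.99 to 0.14. Genes of this run are close copies of each other, and how far their probes read each other's transcripts was not tested.

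Outside the run the other 6 members of chromosome 7 ran from -0.13 (*Trim68*) to 0.86 (*Trim72*). They include *Trim21*, *Trim28*, *Trim3* and *Trim66*, from 0.07 to 0.30.

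**Figure D4:**
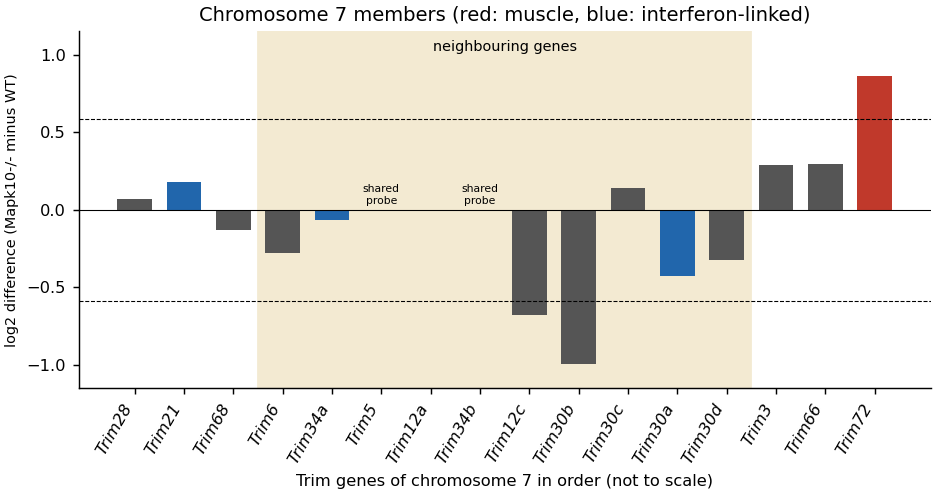
Log2 difference (Mapk10-/- minus WT) of the Trim genes of chromosome 7 in their order along it, without scale, with the neighbouring genes from *Trim6* to *Trim30d* shaded and *Trim5* and *Trim34b* left blank because only shared probes read them. Of the 8 shaded members 7 are below 0 on their own brightest probe, down to -0.99 for *Trim30b*, and *Trim72* stands at 0.86.

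Most markers of neutrophils differed between the arrays, and those of macrophages and lymphocytes mostly lay within the technical SD. Of 10 neutrophil markers 6 were at least 1.5-fold lower and none higher (3.69% and 4.1% of all genes, median -0.83). The signals of the 10 summed to 1072 in WT and 527.0 in Mapk10-/- muscle. *Ngp* and *Ltf* were level on both arrays, and *Camp* was above 0 (0.32). Of 8 macrophage markers 2 (*Mrc1* and *Fcgr1*) were past the line downward and none upward, beside the same shares of all genes. Their median was -0.25, with sums of 12705 and 11968. Of these 8, 5 lay within the technical SD, and *Cd68*, *Lyz2* and *C1qa* were above 0. The 4 lymphocyte markers measured all lay within the technical SD (median 0.02). *Ly6g*, *Ngp*, *Camp* and *Ms4a1* were in the dimmest class of signal, and no detection limit was set for any of these markers. The part of neutrophils, macrophages and lymphocytes in the values of *Trim30b*, *Trim30a* and *Trim30d* was not tested.

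*Trim58*, a ligase that removes dynein in maturing red cell precursors, was the last member past the line, at 27.6 for WT and 18.3 for Mapk10-/- muscle, 1.51-fold lower (-0.59). It was barely past the line, and both signals were dim. It was under the line with median centring (-0.53), quantile scaling (-0.52) and loess scaling (-0.51). *Trim10*, the other erythroid member, was at 40.0 and 39.4 (-0.02). The erythroid markers measured, 2 of 6, were both lower without reaching 1.5-fold, *Slc4a1* at -0.39 and *Epb42* at -0.12. Just short of the line lay *Trim43b* at -0.57, *Trim24* at 0.58 and *Trim7* at 0.56.

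Members of the TIF1 subfamily, which bind histones and act on transcription, were all above 0, as were 47.8% of all genes of any signal. Their median was 0.18, and 2 of the 4 lay within the technical SD of 0. *Trim24*, a nuclear receptor co-regulator, was the highest member after the muscle ones, at 127.3 for WT and 190.3 for Mapk10-/- muscle, 1.49-fold higher (0.58). The others were lower in size. *Trim66* was at 46.1 and 56.6 (0.30), *Trim28*, the KRAB zinc finger co-repressor KAP1, at 370.0 and 388.1 (0.07), and *Trim33*, which acts on SMAD4, at 128.6 and 135.1 (0.07).

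Members that end in NHL repeats or a filamin domain had a median of -0.08, and none reached 1.5-fold. *Trim32*, a ligase of muscle whose mutation causes limb-girdle muscular dystrophy in humans, was at 45.0 in WT and 52.1 in Mapk10-/- muscle (0.21). It thus lay within the technical SD, unlike *Trim55*, *Trim72* and the brighter probe of *Trim54*. *Trim3*, a brain-enriched ligase, was the highest at 145.8 and 178.4 (0.29), and *Trim45* the lowest at 42.2 and 37.8 (-0.16). *Trim71* and *Trim2* lay at -0.09 and -0.08. Among the microtubule-binding members, *Trim67*, a gene of neurons, was at 24.1 and 34.6 (0.52), and *Trim9* at 41.6 and 37.4 (-0.15). *Trim36* and *Trim46* lay at 0.21 and 0.14.

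Of 14 members with roles in innate signalling other than the interferon-linked ones, none reached 1.5-fold and the median was 0.16. Above 0 lay 11 of them (78.6%) and 47.8% of all genes. Most of these members were brighter than the median gene, and brighter genes in general leaned upward, so the 2 shares are not of like signal. Of the 14 members, 11 lay within the technical SD of 0. *Trim31*, which is known from the intestine, was the highest at 13.1 in WT and 18.7 in Mapk10-/- muscle (0.51), both dim. *Trim14*, an adaptor of the antiviral protein MAVS, was at 66.6 and 91.8 (0.46), and *Trim13*, a ligase anchored in the endoplasmic reticulum, at 48.5 and 60.6 (0.32). *Trim56*, which acts on the DNA sensing pathway, was the lowest at 129.0 and 107.9 (-0.26). *Trim8*, a regulator of cytokine signalling, was at 244.5 and 269.6 (0.14). *Trim23*, *Trim26*, *Trim27*, *Trim35*, *Trim38*, *Trim41*, *Trim59*, *Trim62* and *Trim68* filled the range from -0.16 to 0.23. *Trim27* read 151.7 and 162.1 on its brighter probe (0.10), and its second probe was at 0.13.

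The 6 members known from germ cells or early embryos had a median of -0.21. Their signals ran from 12.1 to 57.7 on the WT array. The 3 *Trim43* copies differed in direction, *Trim43a* at 27.3 in WT and 19.7 in Mapk10-/- muscle (-0.47), *Trim43b* at 46.0 and 30.9 (-0.57) and *Trim43c* at 57.7 and 79.3 (0.46). *Trim42*, *Trim69* and *Trim75* lay between -0.22 and 0.09. *Trim60* and *Trim61*, read by 1 shared probe, were at 29.5 in WT and 20.2 in Mapk10-/- muscle (-0.55).

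The remaining 14 members had a median of 0.11, and none reached 1.5-fold. *Trim7*, whose protein binds glycogenin, the primer of glycogen synthesis, was the highest at 76.6 in WT and 112.5 in Mapk10-/- muscle (0.56), and its second probe was at 0.11. *Trim16*, which acts in the clearance of damaged lysosomes, was at 98.8 and 143.1 (0.53), with a probe shared with *Fbxw10* at 0.52. *Trim50* was the lowest at 43.4 and 36.8 (-0.24). *Trim37*, a ligase of peroxisomes and centrioles, was at 188.8 and 213.2 (0.18), and *Trim44* at 189.8 and 206.7 (0.12). *Trim15* was at 0.39 with signals of 14.4 and 18.9, and *Trim11*, *Trim17*, *Trim29*, *Trim39*, *Trim40*, *Trim47*, *Trim52* and *Trim80* ran from -0.18 to 0.21. A probe shared by *Trim47* and *Trim65* was at -0.13.

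**Figure D5:**
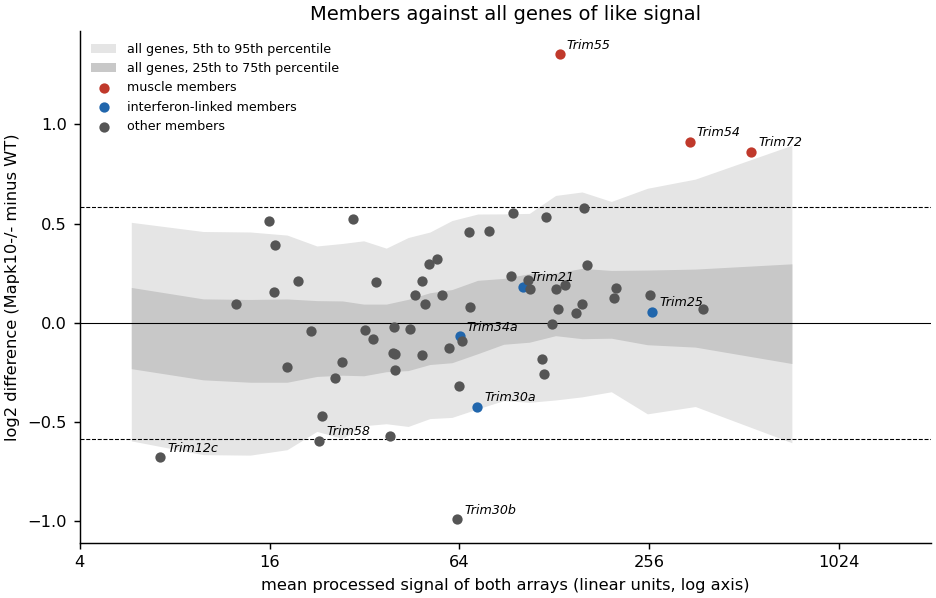
Log2 difference (Mapk10-/- minus WT) of each member against the mean signal of both arrays (log axis), over bands that hold the central share of all genes from the 5th to the 95th and from the 25th to the 75th percentile in 20 bins of signal. Within their bins 53 members lie inside the wider range, among them *Trim72* (0.86). Above it lie *Trim55*, *Trim54*, *Trim7*, *Trim67* and *Trim31*, and below it *Trim30b*, *Trim12c*, *Trim58* and *Trim43b*.

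Genes that share parts of the TRIM layout under another name were read for comparison. Not all of them hold the RING finger, B-box and coiled coil together. Of 13 such genes 3 were past 1.5-fold upward and 2 downward (4.1% and 3.69% of all genes), and the median was -0.09. *Fsd2* and *Cmya5*, whose proteins sit beside the sarcomere of striated muscle, were among the higher ones. *Fsd2* was at 206.7 for WT and 614.2 for Mapk10-/- muscle, 2.97-fold higher (1.57), and *Cmya5* at 761.6 and 1207 (0.66). The other was *Fsd1l*, at 27.3 and 47.2 (0.79). The lower ones were *Mefv*, the pyrin gene of neutrophils and monocytes, at 104.6 and 48.5 (-1.11), and *Mid1*, an X-linked microtubule ligase, at 739.7 and 339.0 on its brighter probe (-1.13). Its second probe, at 52.8 and 28.6, was lower as well (-0.89). *Pml*, an interferon-induced gene of nuclear bodies, was at 0.45. *Rnf207*, a gene of heart muscle, was at -0.51 and *Fsd1* at -0.41, so the list ran both ways.

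Ubiquitin-conjugating enzymes, which hand ubiquitin to TRIM ligases, were mostly level. Of 13 measured, 1 was at least 1.5-fold higher and none lower (4.1% and 3.69% of all genes), with a median of 0.06. *Ube2d1*, a conjugating enzyme that many RING ligases use, was at 389.4 in WT and 721.5 in Mapk10-/- muscle (0.89). *Ube2l6*, the enzyme of ISG15 conjugation, was at 0.03, and *Ube2n*, which builds signalling chains, at 0.13.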

How the data were processed

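RNA of 3 mice per genotype was pooled and read on 1 MoGene 2.0 ST array per genotype. The authors deposited 1 intensity per probe identifier on a linear scale. How many oligonucleotides each identifier summarises was not examined. Software, background correction, summarisation and normalization were not given in the sources used here. Probe symbols from the platform annotation were updated through gene identifiers to RefSeq (GRCm38.p6). The brightest probe with 1 symbol stood for a gene, and WT log2 values were subtracted from Mapk10-/- log2 values without pseudocount or filter. The number of arrays limits the precision. The technical SD is the SD of the gap between 2 probes of a gene, divided by the square root of 2, and it holds no spread between mice. Genes were divided into 4 equal classes of mean signal.

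Named with values were the 7 contrasted members, those past 1.5-fold, the 10 brightest, the extremes of each role group, members whose probes disagreed, and up to 3 genes of each companion list with the largest differences. Further genes were named after their values were seen. Members and lists were chosen with earlier results of these data known. The alternatives were median centring, quantile and loess scaling (span 0.3), a pseudocount of 16, a floor at the 25th percentile, the mean of probes, probes with several symbols, brighter members alone, and 2-fold. The functions were tested on simulated data. Python 3.11.15 was used with pandas 2.3.3, numpy 2.4.6 and statsmodels 0.14.6, and matplotlib 3.10.9 drew the plots.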

Additional observations from a re-analysis of the deposited data

How the results depend on the processing

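No paired analysis was possible because there is 1 array for each genotype. Array background was not analysed here, so the dimmest members, such as *Trim12c*, have no detection limit. *Trim55*, *Trim72* and *Trim30b* kept their direction and stayed past 1.5-fold under all 7 alternatives run on single members. Of the 3 members at least 1.5-fold higher, *Trim54* was under the line (0.23) as the mean of its probes, which draws in its second probe. The higher members numbered 7 with median centring, which shifts all differences by 0.07 and brings in *Trim24*, *Trim7*, *Trim16* and *Trim67*, and 5 with loess, which brings in *Trim67* and *Trim31*. By construction 1 passed at 2-fold. The lower members numbered 2 under each of these scalings and with quantile scaling, *Trim58* being under the line at -0.53 to -0.51. They numbered 1, *Trim30b*, with a pseudocount of 16, with dim values raised and among the 34 brighter members, and 0 at 2-fold. *Trim12c* reversed to 0.48 where shared probes were counted, and *Trim34a* moved to 0.38. The muscle median ran from 0.84 to 0.98, the interferon-linked median from -0.03 to 0.12 and that of the others from 0.05 to 0.16. *Trim25* was at -0.0025 at the lowest, so its sign is not settled. Apart from the pooled mice, no replicate stands behind any value.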
